A study of Mus musculus with 3 samples.

Results

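A set of 10 genes of purinergic and adenosine signalling were described across kidney immune cells. They are the adenosine receptors Adora3, Adora2a and Adora2b, the nucleotide receptors P2ry6, P2ry12, P2ry13, P2rx4 and P2rx7, and the ectoenzymes Entpd1 and Nt5e. They make up 10 of the 32886 gene columns of the deposited table of raw counts, and were chosen by name with earlier results of these data known. Kidneys of untreated wild-type mice (C57BL/6J, male, 10 weeks old) were separated into cortex, outer medulla (OM) and IM, the inner medulla, and sorted CD45+ cells of each were sequenced as single cells in droplets. The table holds 20266 cells in 23 clusters named by the authors, from datasets made in Aachen, Bonn and Hamburg. The cells of 1 compartment in 1 dataset were treated as 1 library, which gave 9 libraries with the 3 datasets as replicates.

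Cells release ATP and other nucleotides under stress or on activation. Ionotropic P2X channels and G protein-coupled P2Y receptors sense these nucleotides, CD39 (Entpd1) and CD73 (Nt5e) degrade them in turn to adenosine, and P1 receptors such as A2a (Adora2a) sense the adenosine. In immune cells, extracellular ATP is best known as a danger signal and adenosine as a restraint on activation.

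Levels are UMIs (counted molecules) of a gene per 1000000 UMIs of a cluster or library (CPM), given as mean ± SD over the 3 datasets. Clusters were made from the expression of these cells, so levels by cluster are a description without a test. Clusters were put in order only where each dataset held at least 50 cells, which left 16 of the 23, and ranges over the datasets were compared between neighbours in that order. The median depth was 744 to 1270 UMIs per cell in the Aachen libraries, 3209.5 to 3505 in Bonn and 2802 to 3067.2 in Hamburg. Dataset and depth cannot be told apart. Summed markers of macrophages, C1qa among them, were detected in all resident macrophage libraries at 180 to 261 UMIs per 10000, and those of T cells at 0.0616 to 1.79.

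**Figure D1:**
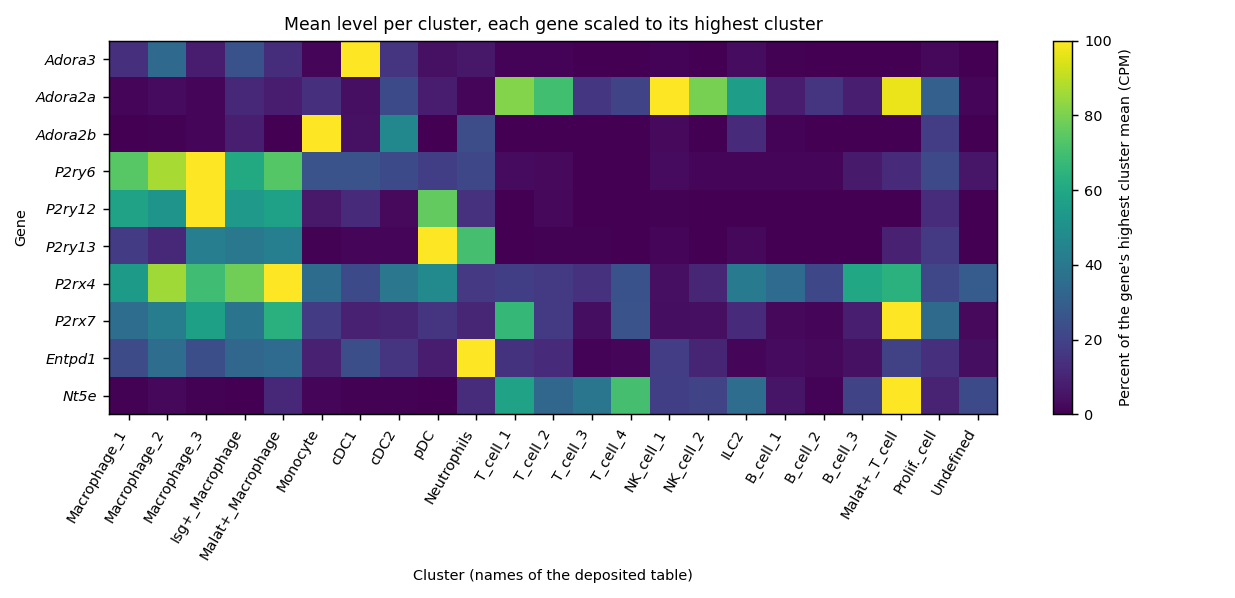
Mean level of each gene (rows) in each cluster (columns), as a percentage of the mean CPM in the gene's highest cluster (colour). P2ry6 is high across the macrophage clusters, Adora3 in cDC1, Adora2a and Nt5e in lymphoid clusters, and Entpd1 in neutrophils.

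Adora3, which encodes the A3 adenosine receptor, was highest in cDC1, the dendritic cells that cross-present antigen. Its level there was 46.5 CPM in Aachen, 61.7 in Bonn and 38.5 in Hamburg, or 48.9 ± 11.8. All 3 values lay above the range of the next cluster, Macrophage_2, at 24.4, 18.9 and 7.17 CPM. Below it, Isg+_Macrophage (12.3 ± 16.6), cDC2 (7.28 ± 0.79), Macrophage_1 (6.61 ± 3.37) and Macrophage_3 (3.78 ± 1.94) followed; from Macrophage_2 to Macrophage_1, each range overlapped the next. The gene was sparse, with 308 UMIs in all cells. cDC1 held 1.5% of the cells and 36.8% of these UMIs, and the macrophage clusters held 31.6% of the cells and 48.2% of these UMIs. A UMI of Adora3 was seen in 15.2, 42.1 and 24.4% of the cDC1 cells in Aachen, Bonn and Hamburg, at median depths of 3469, 11738 and 9188 UMIs. After cells were thinned to 500 UMIs, and those with fewer left out (1 of the Aachen cDC1 cells), the shares were 2.2, 6.58 and 2.96%. In B_cell_1, at median depths of 731, 2746 and 2547 UMIs, none of the 816, 1624 and 1134 thinned cells had one, and 0, 0.123 and 0.0882% did before thinning.

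Adora3 lies on chromosome 3 at 105870858 to 105908926 on the plus strand (GRCm38, the mm10 build) and overlaps Tmigd3 on the same strand, so reads from shared exons may not be assigned to either. Tmigd3 had 2 UMIs in all resident macrophages, both in the Bonn IM library. The RefSeq promoter of Adora3 (GRCm38.p6, chr3:105904171-105904470, plus strand) is shown because Adora3 was the sole gene of the 10 that passed the test between compartments (given with the macrophage results). It holds 250 bases before and 50 bases after the start site, with the ETS core GGAAGT, read on either strand, in capitals.
Adora3: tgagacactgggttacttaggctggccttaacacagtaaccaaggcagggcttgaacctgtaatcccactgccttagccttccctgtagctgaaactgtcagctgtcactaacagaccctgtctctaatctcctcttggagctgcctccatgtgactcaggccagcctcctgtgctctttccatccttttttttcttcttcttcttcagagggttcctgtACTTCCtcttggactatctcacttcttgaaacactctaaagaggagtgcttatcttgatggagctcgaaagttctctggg
This 6-base motif occurred in 23.8% of 32851 promoters of this length. A composite ETS-IRF motif, GGAA and GAAA spaced by any 2 bases, searched on both strands and able to overlap the core, occurred in 2.72% of them and in none of the promoters found for the 10 genes. Promoters were found for 8 of the 10 genes (Adora2a and P2ry6 had no entry). A match is a description and not a binding site.

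Adora2a, the A2a receptor, was highest in lymphoid clusters. NK_cell_1 had 82.5 ± 36.2 CPM, T_cell_1 67.1 ± 26.7, NK_cell_2 65.5 ± 31.9, T_cell_2 57.6 ± 21.1 and ILC2 46.3 ± 23.3, each range overlapping the next. Malat+_T_cell, left out of the order for its 39 Aachen cells, was at 40.8, 66.7 and 133 CPM in Aachen, Bonn and Hamburg. T_cell_3 had 13.1 ± 5.84 CPM. T_cell_4, outside the order with 46, 41 and 74 cells, had 17.1, 16.6 and 17.0 CPM from only 1, 3 and 6 UMIs. The step from ILC2 to the next cluster, cDC2 at 18.4 ± 2.21 CPM, separated the ranges. T cell clusters held 28.0% of the cells and 58.7% of the Adora2a UMIs, and NK cell clusters 5.59% of the cells and 18.3% of these UMIs.

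Adora2b, the low-affinity A2b receptor, was detected mainly in monocytes and cDC2. Monocytes had 0 CPM in Aachen, 23.2 in Bonn and 37.6 in Hamburg, and cDC2 had 0, 13.5 and 14.8 CPM. No Aachen cluster held a UMI of Adora2b, so the Aachen values of 0 are not particular to these clusters. Macrophage_1 had no UMI of Adora2b in any dataset.

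P2ry6, a receptor for UDP, was highest in the macrophage clusters. Macrophage_3 had 341 CPM in Aachen, 594 in Bonn and 361 in Hamburg, Macrophage_2 had 337, 534 and 255, and Macrophage_1 had 253, 472 and 233. The macrophage clusters held 81.0% of its UMIs, and each range overlapped the next. Bonn was the highest dataset in each of these clusters. Monocytes (111 ± 42.6 CPM), cDC1 (110 ± 50.1) and cDC2 (97.0 ± 43.9) followed. These 3 clusters had 23.5 to 31.9% of the resident macrophage level of P2ry6, while their summed C1q genes stood at 0.308 to 10.1% of that level. In T_cell_1 the level of P2ry6 was 33.2, 4.32 and 0.918 CPM in Aachen, Bonn and Hamburg. The summed C1q genes of T_cell_1 stood at 8.54, 0.291 and 0.231% of the resident macrophage level there. Both were thus highest in Aachen. Whether the P2ry6 UMIs of T_cell_1 came from macrophages was not tested.

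P2ry12 and P2ry13, ADP receptors best known from microglia and platelets, are neighbours on the minus strand of chromosome 3, 5389 bases apart. P2ry12 lies at 59216272 to 59262871 and P2ry13 at 59207892 to 59210882, both within Med12l on the opposite strand (GRCm38). The macrophage clusters held 83.5% of 367 P2ry12 UMIs and 65.1% of 169 P2ry13 UMIs. P2ry12 was at 11.9, 29.9 and 42.8 CPM in Macrophage_3 in Aachen, Bonn and Hamburg, and at 6.28, 22.3 and 20 in Macrophage_1. P2ry13 was at 0, 13.6 and 21.4 CPM in Macrophage_3 and at 0.784, 8.75 and 4.63 in Macrophage_1. Both were lowest in Aachen. Outside the order, plasmacytoid dendritic cells (pDC) had the highest mean of P2ry13 over all clusters, at 0, 51.6 and 30.5 CPM from 9, 48 and 42 cells, and P2ry12 was at 0, 51.6 and 12.5 CPM there. Neutrophils came next for P2ry13, at 0, 52.8 and 5.25 CPM from 13 UMIs.

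The promoters of this neighbouring pair (RefSeq, GRCm38.p6, minus strand) are shown because their patterns over clusters were alike (Pearson r = 0.83 over 23 clusters, which share libraries and depth). Such likeness was not particular to neighbours, since P2ry12 and P2ry6, which lies on chromosome 7, had r = 0.87. P2ry12 is at chr3:59262936-59263235 and P2ry13 at chr3:59210833-59211132, with GGAAGT in capitals.
P2ry12: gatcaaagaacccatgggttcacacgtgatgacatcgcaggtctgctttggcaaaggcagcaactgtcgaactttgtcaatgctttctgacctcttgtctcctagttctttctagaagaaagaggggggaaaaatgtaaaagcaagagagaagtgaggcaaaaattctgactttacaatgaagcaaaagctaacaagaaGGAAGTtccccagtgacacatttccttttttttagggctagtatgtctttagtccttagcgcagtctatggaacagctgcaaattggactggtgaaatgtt
P2ry13: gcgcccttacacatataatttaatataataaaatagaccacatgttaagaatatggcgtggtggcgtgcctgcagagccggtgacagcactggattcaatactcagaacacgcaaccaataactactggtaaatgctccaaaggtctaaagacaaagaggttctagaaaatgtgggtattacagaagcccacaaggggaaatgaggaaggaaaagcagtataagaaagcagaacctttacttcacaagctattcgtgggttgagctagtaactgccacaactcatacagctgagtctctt
The P2ry12 promoter held 1 match to the ETS core and the P2ry13 promoter none.

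P2rx4, an ATP-gated channel of lysosomes and the plasma membrane, was detected in myeloid and lymphoid clusters. Malat+_Macrophage had 147 ± 45.7 CPM, Macrophage_2 126 ± 28.0, Isg+_Macrophage 115 ± 10.7, Macrophage_3 102 ± 6.91 and Macrophage_1 80.2 ± 14.2, each range overlapping the next. ILC2 had 60.9 ± 11.2, monocytes 52.0 ± 2.02 and B_cell_1 51.5 ± 20.9 CPM, while NK_cell_1 had 5.80 ± 2.67. B cell clusters, with 21.5% of the cells, held 14.1% of its UMIs. T cell clusters, with 28.0% of the cells, held 12.8%.

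P2rx7, the ATP-gated channel that triggers the NLRP3 inflammasome and pore formation, was detected in macrophages and at varied levels in the T cell clusters. T_cell_1 had 39.8 CPM in Aachen, 137 in Bonn and 106 in Hamburg, above T_cell_2 (16.1, 37.1 and 19.7) and T_cell_3 (7.5, 3.98 and 3.95) in each dataset. T_cell_4, outside the order, had 34.2, 16.6 and 58.9 CPM from 2, 3 and 21 UMIs. Macrophage_2 had 35.5, 73.2 and 70.3 CPM and Macrophage_1 26.7, 63.4 and 61.4. The macrophage clusters held 43.4% of its UMIs and the T cell clusters 40.6%, with 31.6 and 28.0% of the cells. B_cell_1 was at 2.89 ± 1.37 CPM. Malat+_T_cell had 61.1, 148 and 216 CPM, from 3, 20 and 77 UMIs, the highest mean of all clusters. Its neighbour P2rx4 starts 16111 bases downstream on chromosome 5.

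Entpd1 encodes CD39, which hydrolyses ATP and ADP to AMP. It stood highest in neutrophils, at 284 CPM in Aachen, 199 in Bonn and 291 in Hamburg (258 ± 51.1), from 25, 51 and 197 cells. This was 728, 218 and 339% of the resident macrophage level of each dataset, and the Aachen value rests on 4 UMIs. Before thinning 16, 41.2 and 60.9% of neutrophils had a UMI of Entpd1, at median depths of 485, 1920 and 2740 UMIs, against 0.5, 2.71 and 2.2% of B_cell_1 cells. Among cells with at least 500 UMIs, thinned to that number, the counts were 3 of 12, 8 of 51 and 39 of 197 neutrophils, and 2 of 816, 4 of 1624 and 6 of 1134 B_cell_1 cells. Macrophage_2 had 92.0 ± 31.5 CPM, cDC1 61.7 ± 26.5 and Macrophage_1 58.9 ± 22.7. Among T cells, T_cell_1 (38.2 ± 18.2 CPM) and T_cell_2 (32.2 ± 9.43) held more than T_cell_3 (2.87 ± 1.17) in each dataset.

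Nt5e encodes CD73, which makes adenosine from AMP, and 77.0% of its 566 UMIs came from T cell clusters. T_cell_1 had 31.9, 22.3 and 35.4 CPM in Aachen, Bonn and Hamburg, T_cell_3 15, 23.9 and 22.0, and ILC2 18.5 ± 2.33. Outside the order, Malat+_T_cell had 20.4, 29.6 and 105 CPM and T_cell_4 34.2, 22.1 and 53.3, from fewer cells. The 9 libraries of resident macrophages had 0 to 1.47 CPM. Entpd1 and Nt5e, which act in turn from ATP to adenosine, had their highest levels in different clusters. Both were detected in some T cell clusters. T_cell_1 had 38.2 ± 18.2 CPM of Entpd1 and 29.9 ± 6.77 of Nt5e, and Malat+_T_cell 51.1 ± 14.9 and 51.8 ± 46.6.

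**Figure D2:**
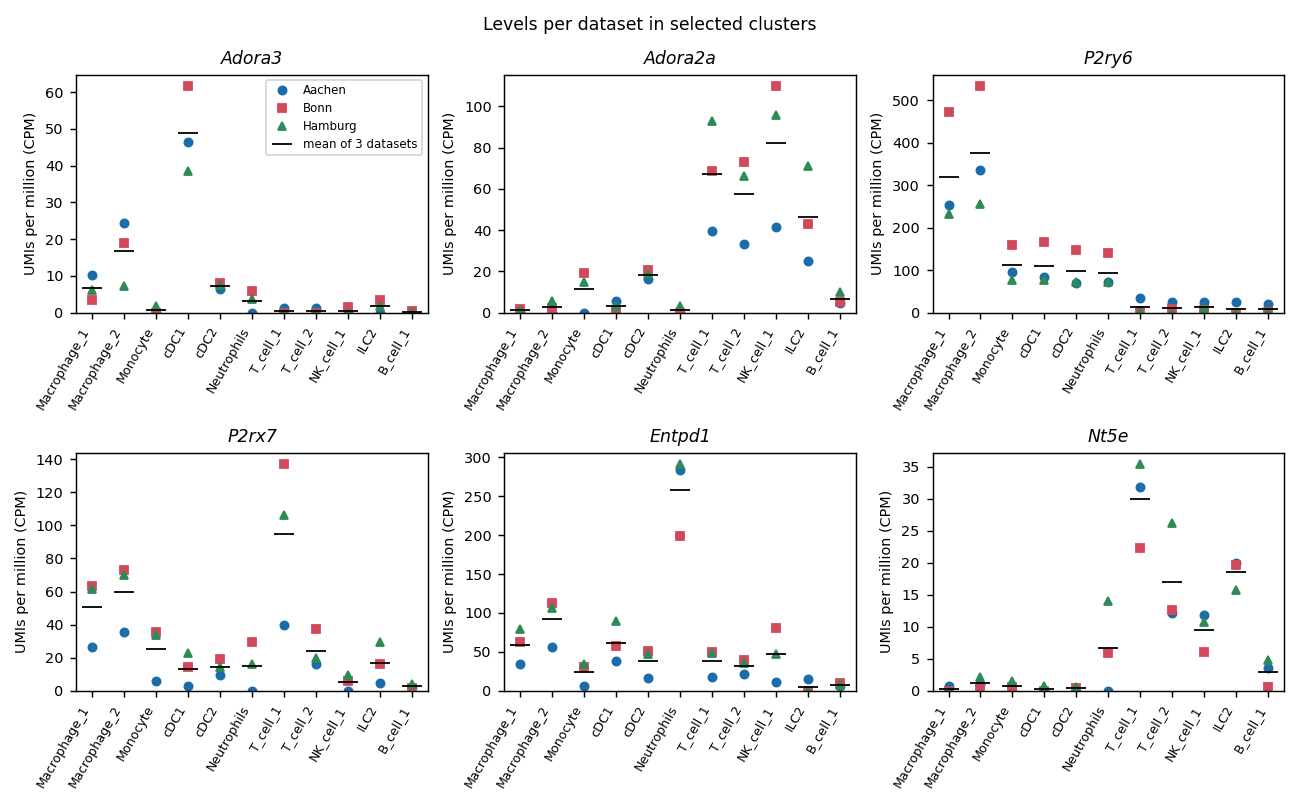
CPM (y axis) of Adora3, Adora2a, P2ry6, P2rx7, Entpd1 and Nt5e in selected clusters (x axis), with 1 point per dataset and a bar at the mean of the 3 datasets. The cDC1 points of Adora3 (38.5 to 61.7) and the neutrophil points of Entpd1 (199 to 291) lie above those of every other cluster drawn.

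The genes whose pattern over the 23 clusters was most like that of a member were found by Pearson correlation of log2(CPM + 5) over 10194 genes. Adora3 was most like Tlr3 (0.91), Clec9a (0.89) and Ppt1 (0.89), P2ry6 most like Cxcl16 (0.97) and Cd300c2 (0.96), and Adora2a most like Sytl2, Ctla2a and Rab37 (0.91 each). For P2ry12 they were Tlcd2, Tmem86a and B3galnt1 (0.94 each), for P2ry13 4933424M12Rik and P2ry12 (0.83 each) and Lair1 (0.81), and for Nt5e Dnaja4 (0.92), Tnik (0.91) and Esyt2 (0.90). Adora2b was most like Tppp3 (0.91), AI839979 (0.90) and Eno3 (0.89), P2rx4 like Tle1 (0.84), Ift172 (0.81) and Hpgds (0.80), P2rx7 like Cmtm4 (0.86), Ext1 (0.83) and C030034L19Rik (0.81), and Entpd1 like Il15 (0.83), Lilr4b (0.83) and Lilrb4a (0.82). With a pseudocount of 1 CPM, none of the 3 genes named for P2ry12 was again among its closest 3, and all 3 of those for P2rx7 were.

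Whether the genes differ between the compartments of the kidney was asked first in resident macrophages (Macrophage_1, Macrophage_2, Macrophage_3 and Isg+_Macrophage). Adora3 was lower in the medulla. Its level in cortex was 26.4 CPM in Aachen, 20 in Bonn and 7.23 in Hamburg, in OM 9.47, 6.59 and 3.61, and in IM 13.3, 2.67 and 6.02. Within each dataset cortex was the highest compartment, but the ranges of the groups overlapped, since the Hamburg cortex lay below the Aachen medulla. These values rest on 20, 59 and 7 UMIs in cortex, 17, 6 and 6 in OM and 9, 10 and 6 in IM. Medulla, taken as the average of OM and IM, gave against cortex a log2 fold change of -1.63 ± 0.35 (SE, 95% interval -2.37 to -0.88, edgeR adjusted p = 0.0361). Of the 10 genes 6 could be tested and 1 was called, against 1.24% of 8687 genes. Adora3 was not called in OM against cortex (-1.53 ± 0.42, edgeR adjusted p = 0.126) or IM against cortex (-1.72 ± 0.42, adjusted p = 0.134) alone, where 0.852 and 0.196% of genes were called. OM against IM gave 0.19 ± 0.50 (edgeR adjusted p = 1), a contrast in which edgeR and DESeq2 each called 0 genes and 267 genes (3.07%) had an unadjusted p under 0.05.

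The call on Adora3 is not stable. Per dataset the difference of log2 CPM was -1.16 in Aachen, -1.86 in Bonn and -0.56 in Hamburg, lower in 3 of 3. Without Bonn it was -1.02 (edgeR adjusted p = 0.55) and without Hamburg -1.85 (adjusted p = 0.123), and DESeq2 gave -1.52 (adjusted p = 0.153). Without Aachen the gene did not pass the low-count filter; with no filter it was -1.84 (edgeR adjusted p = 6.22e-05). The 2 barcode suffixes of the Aachen cortex differed, at 14.7 and 40.1 CPM (6 and 14 UMIs). Those of OM were at 9.73 and 9.04 CPM, and those of IM at 17.8 and 8.78 CPM (6 and 3 UMIs). The higher IM suffix thus lay above the lower cortex suffix, so the order of compartments in Aachen did not hold for every suffix.

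Summed markers of cDC1, the cluster with the highest Adora3, were at 1.99 to 3.42 UMIs per 10000 in the cortical macrophage libraries, 1.58 to 3.03 in OM and 1.74 to 3.74 in IM, so their ranges overlapped. All 3 of these markers were detected in each compartment. In the cDC1 cells themselves their sum was 5.88 to 8.96 in cortex, 6.41 to 6.59 in OM and 5.72 to 7.81 in IM. Markers of platelets were at 0.601 to 1.08 in cortex, 1.87 to 4.85 in OM and 1.28 to 2.44 in IM. Those of kidney epithelium were at 0.0134 to 0.106, 0.0729 to 0.209 and 0.162 to 1.51. Of 4 platelet markers, 2 were detected in cortex, 3 in OM and 4 in IM, and of 4 epithelial markers 2, 4 and 4. Whether these cells were present in the libraries, and their part in the result, was not tested. Without cells that carried T cell or B cell markers, the Adora3 value was -1.66 (edgeR adjusted p = 0.0419). That filter used no marker of cDC1, platelets or kidney epithelium, so it cannot decide on the part of those cells. Macrophage_3 had too few cortical cells to be fitted, so the class also differs in its clusters between compartments. Macrophage_2, with the highest mean Adora3 of the macrophage clusters, also varied. In Bonn it made up 449 of 539 cells in cortex, 54 of 168 in OM and 67 of 642 in IM. In Aachen it was 176 of 496, 364 of 1952 and 361 of 596, and in Hamburg 76 of 232, 90 of 483 and 43 of 259. The part of this mix in the Adora3 value of the class was not tested. In fits of single clusters with no low-count filter, Adora3 was at -1.51 ± 0.45 in Macrophage_2 (edgeR adjusted p = 0.245) and -1.14 ± 0.69 in Macrophage_1 (adjusted p = 1). With the filter, 4 members were tested in Macrophage_2 and 5 in Macrophage_1 and 0 were called, against 0.02 and 0.516% of genes.

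The other 5 genes tested in resident macrophages were not called. P2ry6 gave 0.15 ± 0.12 (95% interval -0.10 to 0.39), P2rx4 -0.14 ± 0.13 (-0.41 to 0.14), P2rx7 0.24 ± 0.15 (-0.08 to 0.56), P2ry12 0.47 ± 0.27 (-0.11 to 1.05) and Entpd1 -0.31 ± 0.18 (-0.69 to 0.07), with edgeR adjusted p from 0.611 to 0.828. For P2ry6 and P2rx4 these intervals stay within less than 0.5 of 0 on the log2 scale. P2rx7 was at 37.0, 73.9 and 47.5 CPM in cortex, 32.3, 90.0 and 78.7 in OM and 32.4, 73.5 and 71.1 in IM. Aachen was the lowest dataset in each compartment. P2ry13 was not tested; it had 3.96, 5.77 and 4.16 CPM in cortex, 0, 8.78 and 9.06 in OM and 0, 10.4 and 8.05 in IM. Adora2a, Adora2b and Nt5e were also below the filter in this class.

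**Figure D3:**
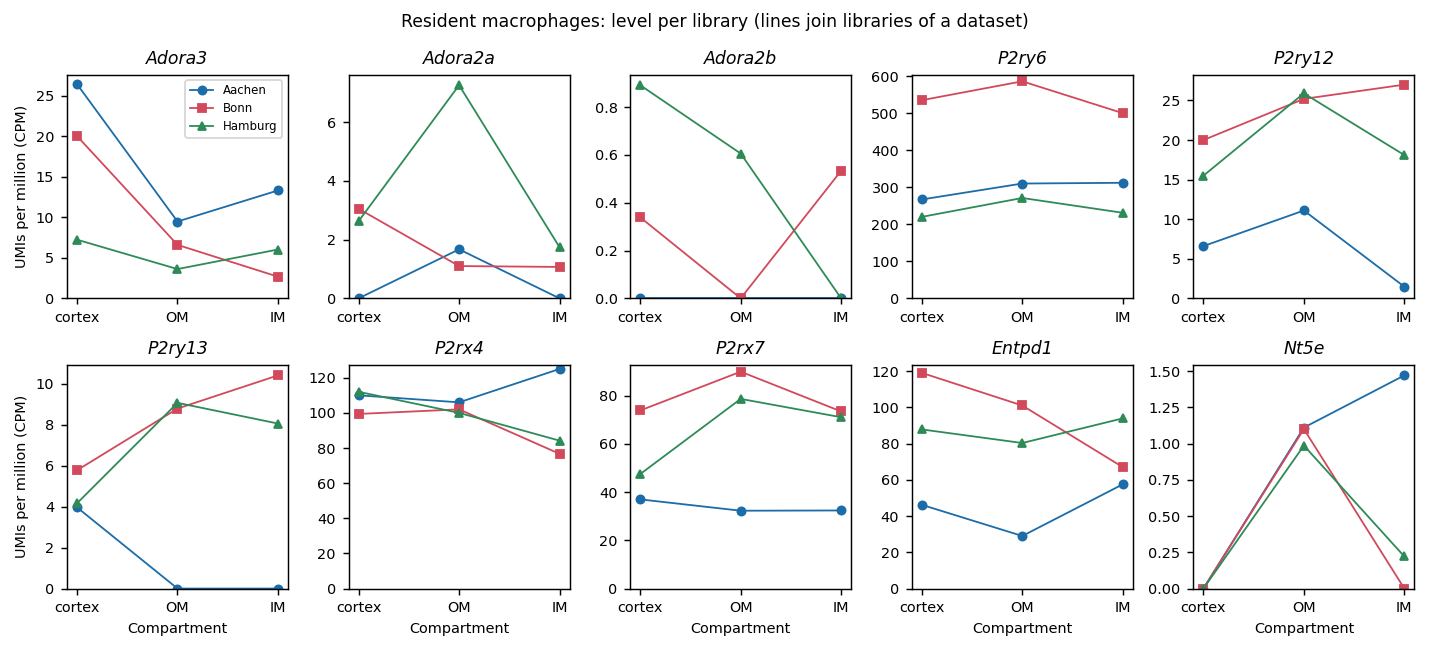
CPM (y axis, from 0) of each gene in the resident macrophages of each library by compartment (x axis), with lines joining the libraries of a dataset. Adora3 is highest in cortex in each of the 3 datasets, and P2rx4 lies between 76.7 and 125 CPM in all 9 libraries.

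Of the wider pathway, the ectoenzyme Bst1 (CD157) and the cell-surface peptidase Dpp4 (CD26) were lower in medullary macrophages. Bst1 fell by 1.60 ± 0.34 on the log2 scale (edgeR adjusted p = 0.0361) and Dpp4 by 1.05 ± 0.23 (adjusted p = 0.0385). Per dataset Bst1 differed by -1.78, -0.99 and -1.54 in Aachen, Bonn and Hamburg, and Dpp4 by -0.60, -1.01 and -0.99. These calls also depended on the setting. Over 9 alternatives each, Bst1 was lower in 9 and called in 4 (edgeR and DESeq2 adjusted p from 0.000515 to 1), and Dpp4 was lower in 9 and called in 3 (adjusted p from 3.74e-05 to 1). Both calls were lost with no replicate block (-1.64 and -0.91), and also without Bonn, without Hamburg, with DESeq2 and without cells carrying markers of another lineage, where Bst1 was at -1.82, -1.64, -1.65 and -1.50 and Dpp4 at -0.90, -1.02, -0.97 and -0.98. Bst1 was also lower in OM against cortex (-2.14 ± 0.45, edgeR adjusted p = 0.0392), a call lost with DESeq2 (adjusted p = 0.0558), with no replicate block (adjusted p = 1), and without Aachen, Bonn or Hamburg (adjusted p = 0.0822, 0.0569 and 0.414). By list, 1 of 2 tested ectoenzymes was called lower (10 listed, median log2 fold change -0.90), as was 1 of 9 genes of nucleoside transport and metabolism (13 listed, median -0.03). The gene called in the second list is the peptidase Dpp4, so no transporter or enzyme of nucleosides in it was called. Neither of the 2 tested other receptors (12 listed, median -0.59) nor any of 9 genes of ATP release and the inflammasome (10 listed, median -0.01) was called. No gene of these lists was called higher. Among the uncalled genes, some were higher in the medulla in each dataset and some were lower in each. Over all genes tested, 1.24% were called in this contrast. The median over all genes tested was 0.01.

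The same contrast was fitted in other classes, and no member was called in any of them. In cDC1, Adora3 was at 61.9, 59.3 and 32.4 CPM in cortex, 22.1, 106 and 30.9 in OM and 28.6, 47.9 and 68.2 in IM, with no common order of compartments. The Bonn OM and IM values come from 7 and 13 cells and, being under 20 cells, were left out of the fit, which used the other 7 libraries. Its medulla against cortex value there was -0.05 ± 0.41 (95% interval -0.86 to 0.76, edgeR adjusted p = 1), where 1.11% of 4047 genes were called. The difference between resident macrophages and cDC1 was -1.48 ± 0.57 (95% interval -2.64 to -0.31, edgeR unadjusted p = 0.0144, adjusted p = 0.811). That between resident macrophages and cDC2 was -0.66 ± 0.71 (-2.12 to 0.81, edgeR adjusted p = 0.998). After adjustment over all genes tested, the Adora3 effect was therefore not shown to differ between these classes.

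In T cells 6 members were tested and 0 called, against 0.0335% of 8957 genes. P2rx7 had the lowest p, with -0.45 ± 0.21 (edgeR adjusted p = 0.85), and was the sole member with an unadjusted p under 0.05. It was at 18.7, 74.6 and 70.0 CPM in cortex, 11.9, 75.3 and 35.2 in OM and 35.7, 75.0 and 32.4 in IM, so only Hamburg was lower in both parts of the medulla. Adora2a gave -0.30 ± 0.14 (edgeR adjusted p = 0.863) and Nt5e -0.10 ± 0.17 (adjusted p = 0.999). The P2rx7 effect in resident macrophages minus that in T cells was 0.72 ± 0.28 (95% interval 0.13 to 1.31, edgeR unadjusted p = 0.0197, adjusted p = 0.581).

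In B cells 4 members were tested, in cDC2 3, in cDC1 4, in monocytes 5, in NK cells 2 and in Malat+_Macrophage 4, and 0 were called in each. The percentages of all genes called there were 0.0898, 0.304, 1.11, 0.332, 0.627 and 0.0587. No member passed the low-count filter in ILC2, where 0.299% of genes were called. Adora2b was tested in monocytes alone, with 0.41 ± 0.40 (95% interval -0.38 to 1.20, edgeR adjusted p = 0.999). Neutrophils, the cluster with the highest Entpd1, had at least 20 cells in only 4 of the 9 libraries and were not fitted.

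**Figure D4:**
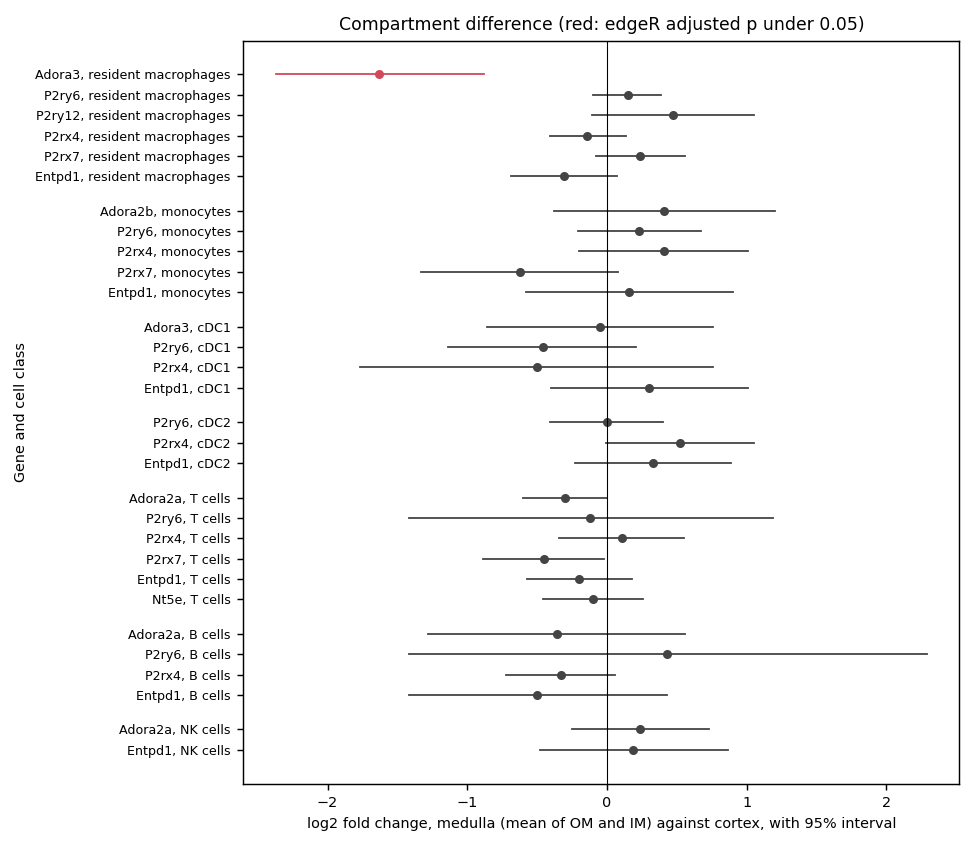
Log2 fold change of medulla (mean of OM and IM) against cortex (x axis) with its 95% interval for the genes tested in the classes drawn (y axis). The interval of Adora3 in resident macrophages (-2.37 to -0.88, red) is the only one called by edgeR.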

How the data were processed

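Kidneys were perfused, dissected and digested, and live CD45+ cells were sorted and profiled on the 10x Genomics platform. The authors used Cell Ranger with the mm10 genome, removed cells outside 200 to 4000 genes or above 20% mitochondrial content, and clustered the rest in Seurat. The deposited values are expected counts of UMIs, not scaled to depth. They are whole in Aachen and Bonn cells, while 0.118% of the nonzero Hamburg values are whole. Doublets were not called here. Markers of another lineage (at least 2 UMIs in a cell) were found in 1277 cells. For myeloid cells these were T cell and B cell markers. For T cells they were B cell markers and C1q genes, and for B cells T cell markers and C1q genes. Libraries shared 225 barcodes summed over all pairs, and 16 at most in a pair. The number of mice per library is not given in the sources used here. With the dataset as block, p-values measure how the differences between compartments vary over the datasets.

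The members and gene lists were chosen with earlier results of these data known. For each class, the counts of a library were added up and rounded. Low genes were removed by filterByExpr, TMM factors were applied, and edgeR 4.0.16 (R 4.3.3) gave quasi-likelihood tests with the dataset as block. P-values were adjusted by Benjamini-Hochberg over all genes tested, with a threshold of 0.05. Standard errors are the log2 fold change over the square root of F. DESeq2 1.42.0 was the alternative. The datasets pair the libraries, since centred profiles of resident macrophages correlated at 0.81 to 0.91 within a dataset and -0.80 to 0.48 otherwise. Differences of effects between classes were tested as interactions, for members with at least 15 UMIs in each class; this minimum, the test against cDC1 and the Adora3 fits without the low-count filter in single clusters or without Aachen were chosen after seeing the data. Differences per dataset used log2 CPM with a prior count of 2. Named genes were the members, genes of the lists called in macrophages, and the 3 genes most like each member, of which some are not reported here. The scripts were tested on simulated data.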

Additional observations from a re-analysis of the deposited data

How the results depend on the processing

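For resident macrophages, medulla against cortex, 1 member and 108 genes were called. No member was called with DESeq2 (48 genes in all), and 68 genes were called with Malat+_Macrophage added. Without 1 dataset each, 0 members and 6 to 237 genes were called; Adora3 did not pass the filter without Aachen. Without the low-count filter 382 genes were called.

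The pairing by dataset mattered. With no replicate block 0 members and 0 genes were called in every contrast and class where the alternatives were run, and Adora3 was at -1.35 (edgeR adjusted p = 1). Over the 9 alternatives that gave a value, 1 of them added after seeing the data, Adora3 was between -1.85 and -1.02, lower in 9 of 9, and called in 5 (adjusted p from 2.42e-05 to 1).

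In OM against cortex, 74 genes were called by edgeR, 49 by DESeq2, 330 without the filter (1 member, Adora3) and 5 to 110 without 1 dataset (5 without Hamburg). In IM against cortex, 17 were called, 3 by DESeq2, 279 without the filter (1 member, Adora3), 0 to 207 without 1 dataset and 29 without cells with markers of another lineage. In OM against IM, 0 became 36 without the filter, 1 without those cells and 0 to 2 without 1 dataset.

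In T cells, 3 genes became 107 without the filter, 0 by DESeq2, 5 without cells with markers of another lineage and 0 to 37 without 1 dataset. In B cells, 8 became 84, 0 by DESeq2, and up to 34 without 1 dataset. In cDC2, 15 became 37, 4 by DESeq2, 8 without those cells and 2 at the lowest without 1 dataset.

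Some uncalled values changed sign when 1 dataset was left out. In IM against cortex, P2ry12 ranged from -0.15 (without Bonn) to 0.43, Entpd1 from -0.44 to 0.14 (without Bonn) and P2rx7 from -0.02 (without Hamburg) to 0.27. In OM against IM, Adora3 ranged from -0.54 (without Bonn) to 0.56 and Entpd1 from -0.50 to 0.14 (without Aachen), Dpp4 ranged from -0.44 (without Bonn) to 0.41, and with no replicate block Adora3 was at -0.06 and Dpp4 at -0.05. In T cells, P2ry6 was at 0.90 with no replicate block and 0.72 without Bonn, P2rx4 ranged from -0.16 (without Bonn) to 0.50 and P2rx7 from -0.77 to 0.06 (without Hamburg). The cause was not tested. Adora2a, Adora2b, P2ry13 and Nt5e had too few counts to be tested in resident macrophages. They had 33, 5, 94 and 6 UMIs there, at 2.43, 0.303, 5.61 and 0.524 CPM. In T cells, where both were tested, Adora2a had 863 UMIs (49.2 CPM) and Nt5e 393 (23.8 CPM). For Adora2b and P2ry13 the part of depth was not tested.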
